A study of Mus musculus with 6 samples.

Results

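The vessels of the lung were followed through 41 genes of endothelium and vessel growth in mice in which human SRY, the sex-determining gene of the Y chromosome, was switched on in the early embryo. The genes were taken by name, and every probe carrying 1 of these symbols was used, which gave 63 probes of 25697 on the array and 41 genes of 18138. They comprise 7 ligands, 12 receptors and other surface proteins of signalling, 4 capillary genes, 2 large-vessel genes, 3 lymphatic genes, 5 junction and adhesion genes, 2 genes of the vessel matrix and 6 transcription factors.

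Total RNA came from lungs of male FVB mice (FVB/N in the methods of the study) at postnatal day 6, with 3 hSRY-OFF and 3 hSRY-ON mice and 1 Illumina MouseRef-8 array for each. Both groups are described by the study as carriers of a single Signalox-hSRY transgene at the H11 locus, from 1 transgenic line. In hSRY-OFF mice the transgene was not recombined, so that the CAG promoter drives the red fluorescent protein DsRed2 and human SRY stays silent. In hSRY-ON mice, Cre recombinase carried over in the oocytes of Ddx4-Cre mothers had removed DsRed2 in the single-cell embryo, which placed FLAG-tagged human SRY and EGFP under the CAG promoter. This promoter is active in most cell types, so SRY was not limited to endothelium. Elsewhere the comparison pups are named controls, which the methods define as littermates lacking Signalox-hSRY, so that the transgene in the hSRY-OFF mice of the arrays rests on their label. The hSRY-ON mice of the arrays did not carry Ddx4-Cre themselves. The mouse array does not measure human SRY.

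Endothelial cells line blood and lymphatic vessels. Their growth is steered by secreted ligands such as the VEGFs and angiopoietins, which act through receptor tyrosine kinases on the endothelial surface. Transcription factors of the ETS and SOXF families hold the endothelial programme in place, and junction proteins seal the lining. In the newborn lung the capillary bed is still expanding and being remodelled as the alveoli form.

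Values are normalized log2 intensities, so a difference of 1 is a 2-fold difference in intensity, and they are given in the order of replicates 1, 2 and 3. Changes are hSRY-ON minus hSRY-OFF with their SE from limma, n = 3 per group throughout. A probe was called where its Benjamini-Hochberg adjusted p over all 13841 tested probes was under 0.05. Levels of different probes are not comparable with each other. The arrays detected between 51.33% and 55% of probes. Correlations across tested probes were 0.991 to 0.993 within hSRY-OFF and 0.972 to 0.980 within hSRY-ON, against 0.935 to 0.959 between the groups. The lung label held for markers of alveolar type I and type II cells, of which 7 of 10 and 10 of 10 were tested, and Pecam1 and Cdh5, which define endothelium, were detected on all arrays.

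Genes of the endothelial programme were lower in hSRY-ON lungs in several roles at once, most of all its transcription factors and junction genes. None of the 6 tested ligands was called, where 13% of all tested genes were lower, and their median change was -0.23. Of the 51 member probes that passed the detection filter, 14 fell (27.5%), against 13.3% of all tested probes, and 1 rose (1.96%), against 13.6% of all. These 15 calls (29.4%, against 26.9% of all probes) lie in 12 genes. The falls were those of Tie1, Acvrl1, Nos3, Cdh5, Cldn5, Esam, Mmrn2, Fli1, Sox7, Sox17 and Sox18, and the rise was that of Eng. Taking for each gene its brightest tested probe, 30 of the 37 tested genes (81.1%) had a negative change, against 50.8% of all 10292 tested genes. The median change was -0.40 over the 37 genes and -0.01 over all genes. In a whole-lung sample, fewer cells of a type and less RNA per cell cannot be told apart.

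**Figure D1:**
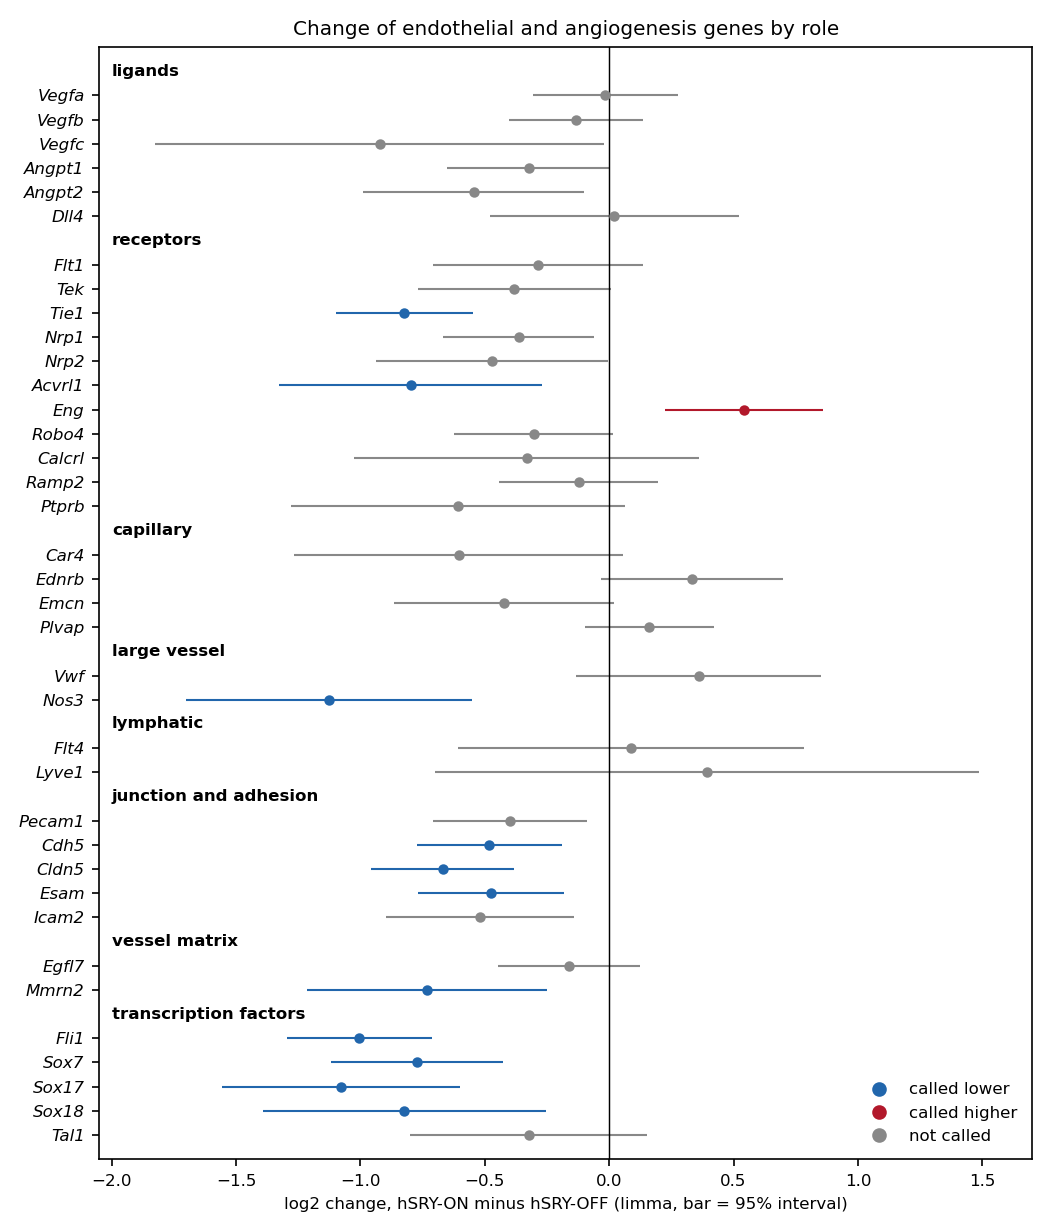
Change of the 37 tested genes in log2 intensity, hSRY-ON minus hSRY-OFF, by role, with the 95% interval from limma, for the brightest tested probe of each gene. All points of the transcription factors and junction genes lie to the left of 0, while Eng is the single gene called to the right.

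The transcription factors held the largest share of calls, with 4 of 5 tested genes called lower (80%, against 13% of all tested genes). Their median change was -0.82. Fli1, an ETS factor of endothelial and blood cells, read 8.95, 9.22 and 9.14 in hSRY-OFF and 8.11, 8.17 and 8.02 in hSRY-ON lungs. It fell by 1.01 ± 0.12 (SE), which is 2.01-fold (limma, adjusted p = 0.00276). The groups were well apart and the hSRY-ON arrays lay close together. Tal1, a factor needed for the first blood and endothelial cells, had a change of -0.32 ± 0.20 and its group values overlapped. The ETS factor Erg was not detected on any array by either of its 2 probes, so no change is given for it.

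Sox7, Sox17 and Sox18 form the SOXF family, HMG-box factors related to SRY that act in vessel development and arterial identity. Sox17 read 10.54, 10.56 and 10.48 in hSRY-OFF and 9.91, 9.26 and 9.18 in hSRY-ON lungs, a fall of 2.11-fold (-1.08 ± 0.20, limma, adjusted p = 0.0105). Its hSRY-OFF arrays lay close together, and hSRY-ON replicate 1 was the nearest to them. A dimmer second probe of Sox17 read 7.23, 7.61 and 7.18 against 7.32, 4.87 and 4.80, and was not detected on hSRY-ON replicates 2 and 3. On this probe replicate 1 lay within the hSRY-OFF range, and the change of -1.68 ± 0.64 did not pass (limma, adjusted p = 0.0920).

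Sox7 was called on both of its probes. The brighter one read 12.19, 12.24 and 12.00 in hSRY-OFF and 11.58, 11.17 and 11.36 in hSRY-ON lungs, a fall of 1.71-fold (-0.77 ± 0.15, limma, adjusted p = 0.0107). The other read 10.86, 10.98 and 10.53 against 10.24, 9.69 and 9.79, a fall of 1.85-fold (-0.88 ± 0.19, limma, adjusted p = 0.0160). On both probes the groups did not overlap, as held for 46.6% of all tested probes. Sox18 read 11.05, 10.99 and 10.80 against 10.65, 10.04 and 9.68, a fall of 1.77-fold (-0.82 ± 0.24, limma, adjusted p = 0.0434). Its hSRY-ON arrays were spread over a wide range, with replicate 1 again the highest.

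All 5 junction and adhesion genes had negative changes, and their groups did not overlap on any of the 6 probes. Over all tested probes, 46.6% had groups that did not overlap. Cldn5, the claudin of the endothelial tight junction, read 13.90, 14.09 and 14.06 in hSRY-OFF and 13.24, 13.47 and 13.34 in hSRY-ON lungs, a fall of 1.59-fold (-0.67 ± 0.12, limma, adjusted p = 0.00947). Cdh5, or VE-cadherin, the adherens junction protein of endothelium, read 11.65, 11.84 and 11.64 against 11.31, 11.29 and 11.10, a fall of 1.40-fold (-0.48 ± 0.12, limma, adjusted p = 0.0294). The hSRY-ON arrays agreed closely with each other for both genes.

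Esam, an immunoglobulin-type adhesion molecule of endothelium and platelets, read 13.58, 13.56 and 13.51 in hSRY-OFF and 13.19, 13.14 and 12.89 in hSRY-ON lungs. It fell by 1.39-fold (-0.48 ± 0.12, limma, adjusted p = 0.0310). Icam2, an endothelial ligand for leukocyte integrins, lay just outside the threshold at -0.52 ± 0.16 (limma, adjusted p = 0.0504). Pecam1, the pan-endothelial CD31 antigen, had changes of -0.40 ± 0.13 and -0.28 ± 0.14 on its 2 probes, neither called (limma, adjusted p = 0.0625 and 0.177).

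**Figure D2:**
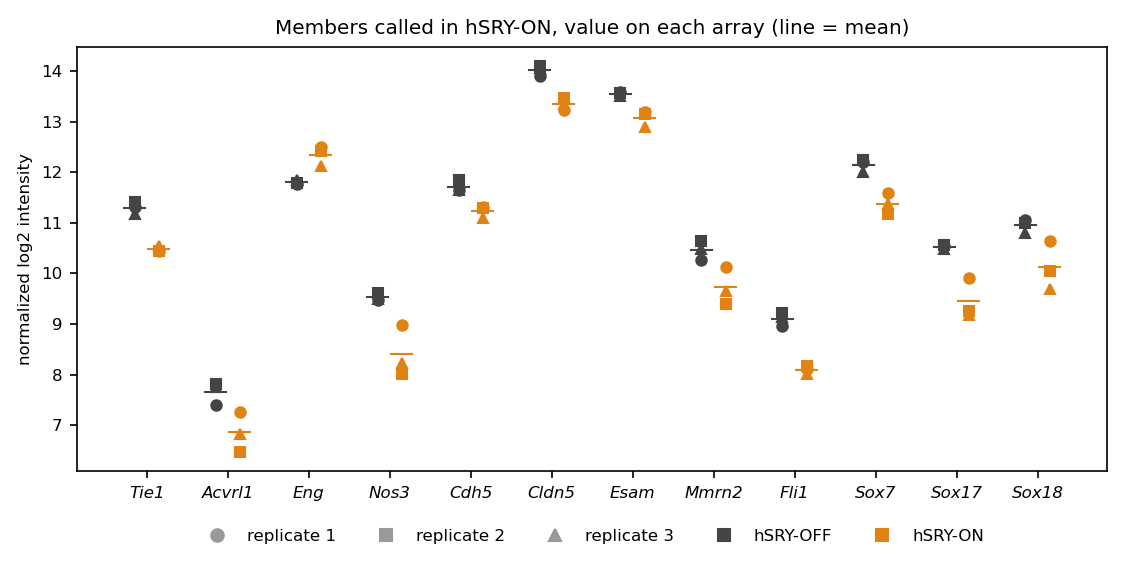
Normalized log2 intensity on each array for the 12 called genes, 1 probe each (the brightest tested), with replicates 1, 2 and 3 as circles, squares and triangles and the group means as lines. The 2 groups do not overlap in any of the 12 genes, which their choice by call favours. Over all tested probes, 46.6% had groups that did not overlap. The orange hSRY-ON points spread more for Sox17, Sox18 and Nos3 than for Tie1 and Fli1.

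Of the 11 tested receptors, 2 fell (18.2%) and 1 rose (9.09%), shares near the 13% and 14.9% of all tested genes. Tie1, a receptor tyrosine kinase that modulates angiopoietin signalling, read 11.31, 11.41 and 11.18 in hSRY-OFF and 10.45, 10.44 and 10.54 in hSRY-ON lungs, a fall of 1.77-fold (-0.82 ± 0.12, limma, adjusted p = 0.00419). The 3 hSRY-ON arrays lay close together, far below hSRY-OFF. Tek, or TIE2, the receptor that binds the angiopoietins themselves, read 12.15, 12.28 and 12.04 against 12.09, 11.62 and 11.61, and its change of -0.38 ± 0.17 did not pass (limma, adjusted p = 0.129). Here replicate 1 of hSRY-ON lay among the hSRY-OFF arrays and the other two lay below them. Ptprb, the phosphatase VE-PTP that acts on TIE2 and VE-cadherin, showed the same arrangement, with a change of -0.61 ± 0.29 (limma, adjusted p = 0.154).

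Acvrl1 and Eng encode partners in a single pathway, the endothelial receptor ALK1 and its co-receptor endoglin for BMP9 and BMP10, and their probes were called in opposite directions. Acvrl1 read 7.39, 7.82 and 7.75 in hSRY-OFF and 7.27, 6.46 and 6.83 in hSRY-ON lungs, a fall of 1.74-fold (-0.80 ± 0.22, limma, adjusted p = 0.0386). The margin was narrow, since replicate 1 of hSRY-ON lay just below replicate 1 of hSRY-OFF. Eng read 11.77, 11.79 and 11.84 against 12.49, 12.41 and 12.12, a rise of 1.46-fold (0.54 ± 0.13, limma, adjusted p = 0.0258). All hSRY-ON arrays lay above the highest hSRY-OFF array, and 46.6% of all tested probes had groups that did not overlap. Endoglin is also made by some macrophages and stromal cells, whose part in the rise was not tested.

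None of the other 8 tested receptors was called. For the VEGF receptor Flt1, the brighter probe changed by -0.29 ± 0.18 and the other by 0.03 ± 0.26. The VEGF co-receptors Nrp1 and Nrp2 changed by -0.36 ± 0.13 on the brightest probe of Nrp1 and -0.47 ± 0.20 for Nrp2. Robo4, a guidance receptor of endothelium, changed by -0.30 ± 0.14 on its brightest probe. Calcrl and Ramp2, which together form the adrenomedullin receptor, changed by -0.33 ± 0.29 and -0.12 ± 0.14. Kdr, the main VEGF receptor of blood vessels, was not detected on any array by its single probe, and no level can be given for it.

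No ligand was called, and 5 of 6 tested ligands had a negative change (83.3%, against 50.8% of all tested genes). With 13% of all tested genes called lower, no call among 6 genes does not set the ligands apart. Vegfa, the principal angiogenic factor, which in the lung is made largely by epithelium, was measured by 2 tested probes that disagreed. The first read 10.81, 11.02 and 10.85 in hSRY-OFF and 11.25, 10.09 and 9.76 in hSRY-ON lungs, a change of -0.52 ± 0.36 (limma, adjusted p = 0.311). The second read 11.24, 11.47 and 11.27 against 11.43, 11.26 and 11.24, a change of -0.02 ± 0.12 (limma, adjusted p = 0.937). On the first probe hSRY-ON replicate 1 was the highest of the 6 arrays and the other two were the lowest, while on the second the groups overlapped throughout. Where in the transcript each probe binds was not examined here.

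Vegfc, the growth factor of lymphatic vessels, had the largest change among the ligands. It read 9.22, 9.20 and 9.19 in hSRY-OFF and 9.21, 8.09 and 7.54 in hSRY-ON lungs, a change of -0.92 ± 0.38 (limma, adjusted p = 0.116). Replicate 1 sat on the hSRY-OFF level while the other two lay far below it. Vegfb, which binds FLT1, read 10.77, 10.66 and 10.65 against 10.53, 10.48 and 10.66, a change of -0.13 ± 0.11.

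Angpt1, the activating ligand of TIE2 made by mural and stromal cells, read 9.03, 9.15 and 9.01 in hSRY-OFF and 8.96, 8.58 and 8.68 in hSRY-ON lungs, a change of -0.32 ± 0.14 (limma, adjusted p = 0.126). Angpt2, its context-dependent antagonist from endothelium, read 9.46, 9.65 and 9.90 against 8.81, 9.39 and 9.19, a change of -0.54 ± 0.19 (limma, adjusted p = 0.0719). In both genes all hSRY-ON arrays lay below the lowest hSRY-OFF array, which held for 2 of the 7 ligand probes (28.6%), against 46.6% of all tested probes. Dll4, the Notch ligand of sprouting tip cells, read 7.45, 8.26 and 7.81 against 7.94, 7.94 and 7.71, a change of 0.02 ± 0.21 whose sign depended on the normalization. Apln, the apelin ligand, was not detected on any array.

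**Figure D3:**
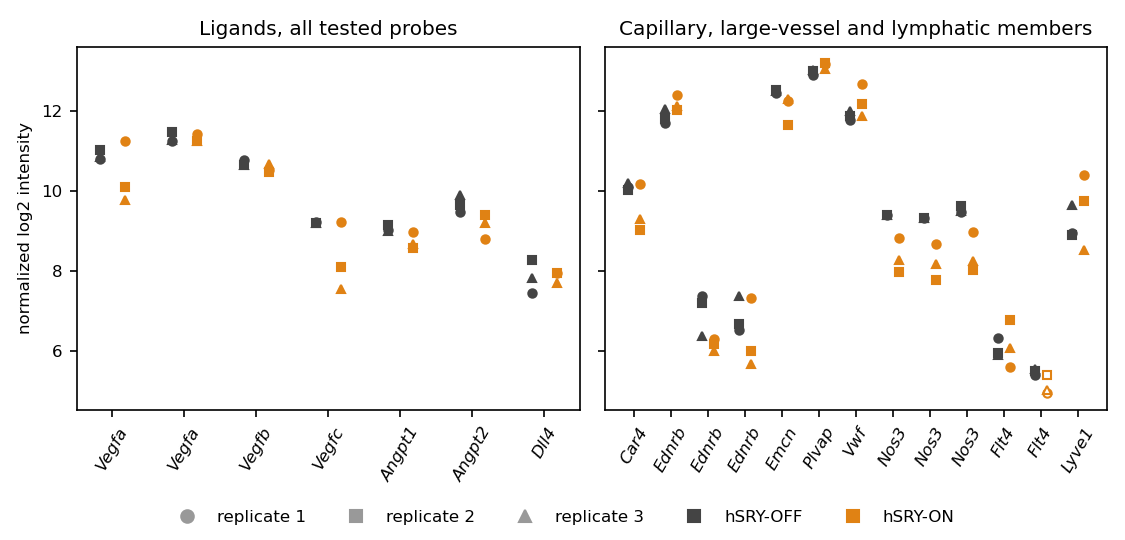
Normalized log2 intensity on each array for every tested probe of the ligands (left) and of the capillary, large-vessel and lymphatic genes (right), where a repeated name is a further probe of the same gene. Replicate 1 of hSRY-ON (orange circles) lies with the hSRY-OFF arrays for Vegfc and Car4 and above them for the first Vegfa probe. The 3 Nos3 probes are the called ones. Open symbols mark arrays on which the probe was not detected, for the dimmer Flt4 probe.

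Among the genes listed as capillary, large-vessel or lymphatic, Nos3 was the only one called. It was 1 of 2 tested large-vessel genes (50%), against 13% called lower among all tested genes. In whole-lung RNA the fall of Nos3 cannot be placed in 1 kind of vessel. Nos3 encodes endothelial nitric oxide synthase, and its 3 probes gave falls of 2.06-fold, 2.17-fold and 2.18-fold (limma, adjusted p = 0.0137, 0.0126 and 0.0165). The brightest probe read 9.48, 9.62 and 9.50 in hSRY-OFF and 8.98, 8.01 and 8.24 in hSRY-ON lungs. The groups did not overlap on any of the 3 probes, as held for 46.6% of all tested probes. Replicate 1 of hSRY-ON was the nearest to hSRY-OFF on each. The probes share the same RNA of each mouse, so they are not independent replicates.

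Vwf, the clotting factor stored by endothelium of larger vessels and by platelets, read 11.77, 11.88 and 12.01 against 12.68, 12.19 and 11.88, a change of 0.36 ± 0.21 (limma, adjusted p = 0.237). It differed in sign from Nos3, and its groups overlapped.

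None of the 4 capillary genes was called. Their median change was -0.13 with the brightest Ednrb probe, -0.51 or -0.48 with either of its other probes, and -0.42 without Ednrb. Car4, a carbonic anhydrase on the surface of a class of lung capillary cells, read 10.09, 10.02 and 10.19 in hSRY-OFF and 10.17, 9.03 and 9.30 in hSRY-ON lungs, a change of -0.60 ± 0.28 (limma, adjusted p = 0.151). Emcn, the capillary and venous sialomucin endomucin, read 12.45, 12.53 and 12.51 against 12.25, 11.66 and 12.31, a change of -0.42 ± 0.19 (limma, adjusted p = 0.136). The groups did not overlap for Emcn, as held for 46.6% of all tested probes. Its lowest array was hSRY-ON replicate 2 and not replicate 3. Plvap, the protein of endothelial diaphragms, read 12.91, 13.01 and 13.02 against 13.18, 13.19 and 13.06, a change of 0.16 ± 0.11.

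Ednrb, the endothelin receptor B of lung capillaries, gave discordant probes. Its brightest probe read 11.70, 11.81 and 12.05 in hSRY-OFF and 12.41, 12.04 and 12.11 in hSRY-ON lungs, a change of 0.33 ± 0.15 (limma, adjusted p = 0.152). A second probe read 7.37, 7.21 and 6.36 against 6.29, 6.16 and 5.99, a change of -0.83 ± 0.26 (limma, adjusted p = 0.0556). The third read 6.53, 6.68 and 7.37 against 7.32, 6.0 and 5.67, a change of -0.53 ± 0.44 (limma, adjusted p = 0.400). No direction can be given for Ednrb from these arrays.

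The lymphatic genes were not called. Lyve1, a hyaluronan receptor of lymphatic endothelium that some lung macrophages also make, read 8.94, 8.89 and 9.65 in hSRY-OFF and 10.39, 9.75 and 8.51 in hSRY-ON lungs, a change of 0.39 ± 0.46 (limma, adjusted p = 0.560). Its hSRY-ON arrays spanned from below to above all hSRY-OFF arrays. Flt4, the receptor of VEGF-C, read 6.32, 5.95 and 5.90 against 5.59, 6.78 and 6.06 on its brighter probe, a change of 0.09 ± 0.29. Its other probe read 5.38, 5.50 and 5.55 against 4.93, 5.38 and 5.01 and was not detected on any hSRY-ON array. Its groups met, and it was not called (limma, adjusted p = 0.111). Prox1, the transcription factor that defines lymphatic identity, had 2 probes that failed the filter, and 1 of them was detected on 2 hSRY-ON arrays, at 5.06, 4.79 and 5.05 against 5.52, 5.32 and 5.43.

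Mmrn2, an extracellular matrix protein that binds VEGF-A, read 10.27, 10.64 and 10.48 in hSRY-OFF and 10.12, 9.40 and 9.66 in hSRY-ON lungs, a fall of 1.66-fold (-0.73 ± 0.20, limma, adjusted p = 0.0377). The gap between the groups was small because replicate 1 of hSRY-ON lay close to replicate 1 of hSRY-OFF. Egfl7, secreted by endothelium, was measured by 3 tested probes with changes of -0.27, 0.12 and -0.16, none called.

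The hSRY-ON arrays were not alike in these genes. Measured from the hSRY-OFF mean, the median over the 37 genes was -0.25 on hSRY-ON replicate 1, -0.47 on replicate 2 and -0.54 on replicate 3, while the hSRY-OFF arrays lay between -0.05 and 0.04. Replicate 1 was the hSRY-ON array nearest to hSRY-OFF in 11 of the 15 called member probes (73.3%), against 35.5% of all 3729 called probes. The median SD of a member probe was 0.274 in hSRY-ON and 0.119 in hSRY-OFF, against 0.223 and 0.130 over all tested probes.

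Leaving out hSRY-ON replicate 1, 25 of 51 tested member probes were called lower (49%), against 17.2% of all tested probes, and all 15 calls made with every array were kept. As replicate 1 lay nearest to hSRY-OFF in these same genes, the larger count without it is not a separate result. The 11 added calls were on probes of Vegfa, Vegfc, Angpt1, Tek, Ptprb, Calcrl, Car4, Ednrb, Icam2, Pecam1 and Sox17. Vegfc then had a change of -1.39 (limma, adjusted p = 0.00428), the first Vegfa probe -0.96 (limma, adjusted p = 0.00694) and Car4 -0.94 (limma, adjusted p = 0.00591). The dim Sox17 probe was not detected on either remaining hSRY-ON array, and its hSRY-OFF level was at least 3.96-fold higher (limma, adjusted p = 0.00102). The Calcrl probe was also undetected on both, and no fold is given for it. The ligands Vegfb, Angpt2 and Dll4 and the second Vegfa probe were not called in this fit either. With all 6 arrays, Vegfc was also called under array weights and with a single scaling factor in place of background correction and quantile normalization, and Angpt1 under the latter. Angpt2 was called lower without background correction and with a variance trend and robust fit (limma, adjusted p = 0.0439 and 0.0425). Without hSRY-OFF replicate 1 or without hSRY-OFF replicate 2, 4 member probes were called lower (8.16% in both, against 4.42% and 4.85% of all tested probes), and 9 without hSRY-OFF replicate 3 (18%, against 6.94%). Without hSRY-ON replicate 2 there were 10 (20%, against 8.42%) and without hSRY-ON replicate 3 there were 9 (17.6%, against 14.5%). The rise of Eng was lost in 4 of these 6 fits, those without 1 of the 3 hSRY-OFF arrays or without hSRY-ON replicate 2. Tie1, Cldn5 and Fli1 were called in each of the 18 alternatives run, and the brighter Sox17 probe in 17. The Nos3 and Sox7 probes were called in 14 or 15, Eng in 12, and Acvrl1, Cdh5, Esam, Mmrn2 and Sox18 in 10. Cdh5 and Esam lost their calls under median normalization, Sox18 under cyclic loess, and Acvrl1, Cdh5, Esam, Mmrn2 and Eng with the replicate number as a block.

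**Figure D4:**
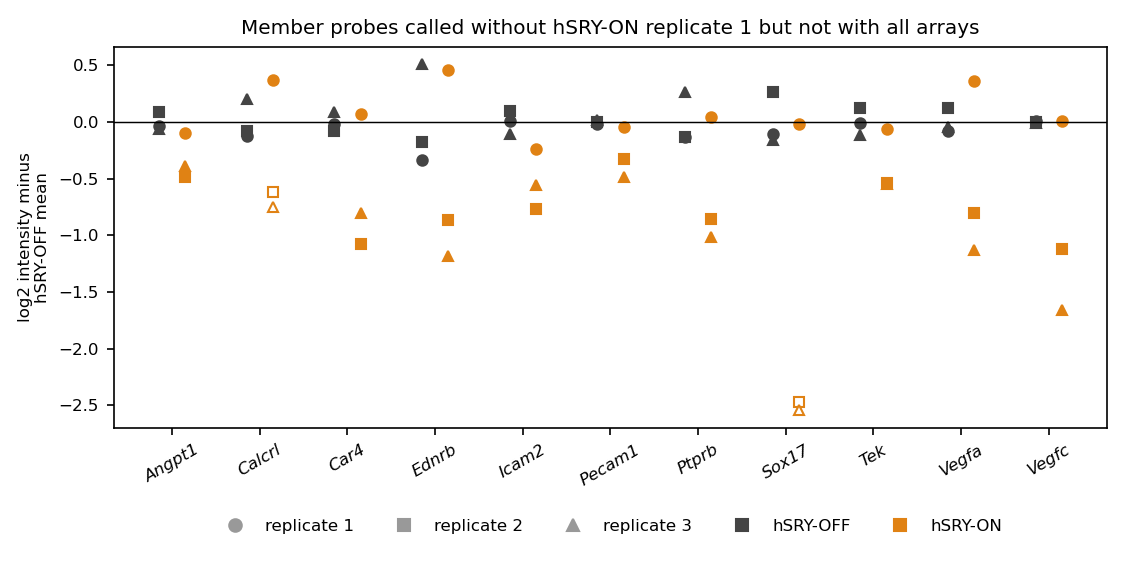
Log2 intensity minus the hSRY-OFF mean on each array, for the 11 member probes called lower without hSRY-ON replicate 1 but not with all 6 arrays. Replicate 1 (orange circles) sits at or near the hSRY-OFF arrays while replicates 2 and 3 lie below it. The probes were picked by this change of call, which favours that arrangement. Open symbols mark arrays on which the probe was not detected, for Calcrl and Sox17, where the distance has no exact meaning.

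RefSeq promoter windows were listed for 23 of the 41 genes, and 3 of the 12 called genes were among them. The 250 bases before their starts (GRCm38.p6, each 5′ to 3′ on the strand of the gene) are shown because Tie1 and Cldn5 fell and Eng rose, while SRY and the SOX factors bind AACAAT and ETS factors such as FLI1 bind around AGGAAG. Capitals mark matches to either motif on either strand, and no 2 matches overlapped.
Tie1 chr4:118489850-118490099 minus strand: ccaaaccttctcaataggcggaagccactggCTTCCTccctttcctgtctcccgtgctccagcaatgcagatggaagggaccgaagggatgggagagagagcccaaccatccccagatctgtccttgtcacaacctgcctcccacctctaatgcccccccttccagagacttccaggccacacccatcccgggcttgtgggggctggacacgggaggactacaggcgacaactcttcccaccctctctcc
Cldn5 chr16:18776597-18776846 plus strand: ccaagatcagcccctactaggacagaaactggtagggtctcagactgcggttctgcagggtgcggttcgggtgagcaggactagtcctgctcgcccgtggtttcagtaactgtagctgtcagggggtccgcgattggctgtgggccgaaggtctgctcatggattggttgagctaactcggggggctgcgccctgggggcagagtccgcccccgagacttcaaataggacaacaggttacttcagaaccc
Eng chr2:32646345-32646594 plus strand: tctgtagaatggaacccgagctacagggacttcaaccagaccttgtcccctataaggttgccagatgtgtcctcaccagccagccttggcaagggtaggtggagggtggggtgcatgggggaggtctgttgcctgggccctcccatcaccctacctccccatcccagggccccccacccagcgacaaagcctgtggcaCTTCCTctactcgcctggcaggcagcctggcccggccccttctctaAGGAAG
AGGAAG matched once in the Tie1 window and 2 times in the Eng window, and neither motif matched in that of Cldn5. AACAAT matched in none of the 3. Over all 32851 mouse windows of this length, 29.5% held AGGAAG and 9.42% held AACAAT. Of the 30 windows of the 23 listed genes, 11 held AGGAAG and 4 held AACAAT. A match is a run of letters and not evidence of binding.

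The rest of the vessel pathway was described with 2 lists, 28 further genes of vessel signalling and 30 further endothelial genes. Of these 58 genes 52 were tested, and 17 were called lower (32.7%) and 5 higher (9.62%), against 13% and 14.9% of all tested genes. Their median change was -0.33. Aplnr, the apelin receptor, fell by 1.63 ± 0.16 on the log2 scale, from 11.41, 11.75 and 11.32 to 9.92, 9.66 and 10.00 (limma, adjusted p = 0.00145). Its groups lay far apart, and its ligand Apln was the undetected one.

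The other signalling genes called lower with the smallest p were Hif1a, the oxygen-sensitive transcription factor subunit (-0.78), Ephb4, the receptor of venous identity (-0.51), and Heyl, a Notch target. Bmpr2, a BMP receptor that pairs with ALK1 and was detected on 1 hSRY-ON array (-0.79), and Tmem100, a target of that pathway (-0.74), were called lower as well (limma, adjusted p = 0.0267 and 0.0479). Id1 and Id3, BMP-responsive genes on the same list, changed by 0.12 and -0.20 and were not called (limma, adjusted p = 0.437 and 0.324). Heyl was not detected on any hSRY-ON array, so its hSRY-OFF level was at least 1.85-fold higher (limma, adjusted p = 0.0133). Those called higher were Edn1, the vasoconstrictor endothelin 1 (1.80), Pgf, placental growth factor, a ligand of FLT1 (1.5), Hey1, another Notch target (0.95), and Smad6, an inhibitor of BMP signals (0.63). Of the 25 tested vessel signalling genes, 6 were lower (24%) and 4 higher (16%), against 13% and 14.9% of all tested genes.

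Pgf read 5.94, 5.67 and 6.08 in hSRY-OFF and 7.66, 7.54 and 7.0 in hSRY-ON lungs (limma, adjusted p = 0.00369), a rise in every hSRY-ON array in a relative of the VEGF ligands, none of which was called. Edn1 read 10.14, 9.78 and 10.70 against 12.11, 12.44 and 11.49 (limma, adjusted p = 0.00753). Of its receptors, Ednrb had the discordant probes described above. The receptor Ednra read 12.93, 13.03 and 12.91 against 12.58, 12.66 and 12.74. Its change of -0.29 ± 0.11 was not called (limma, adjusted p = 0.0919).

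Of the 27 tested genes on the second list, 11 fell (40.7%) and 1 rose (3.7%), against 13% and 14.9% of all tested genes. The falls with the smallest p were Rasip1, needed to open vessel lumens (-1.06), Arhgef15, a gene enriched in endothelium (-1.37), Ets1, an ETS factor (-1.16), and Foxf1, listed as Foxf1a, a forkhead factor of lung mesenchyme and capillaries (-1.21). Adjusted p in limma ranged from 0.00249 for Rasip1 to 0.0049 for Foxf1. Esm1, a marker of sprouting tip cells, rose by 1.74 ± 0.51 (limma, adjusted p = 0.0436), from detection on 1 hSRY-OFF array to all 3 hSRY-ON arrays. Replicate 3 of each group read about the same for Esm1, at 5.71 and 5.66.

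Markers of other lung cells moved between the same groups, and their part in the results above was not tested. The counts of called genes below stand against 13% lower and 14.9% higher of all tested genes, and the share was 10% for the pericyte rise and 14.3% for the type I fall. Sums over tested genes were taken on the linear scale, where the brightest genes weigh most. On this scale 10 pericyte genes ran from 17819 to 18834 in hSRY-OFF and from 11700 to 13936 in hSRY-ON lungs, with 3 lower and 1 higher. Gucy1a3, the brightest of them, changed by -0.69 and carries much of the sum. Of the 10 changes 7 were negative (70%, against 50.8% of all tested genes) and 3 positive. For 6 proliferation genes the ranges were 7260 to 8949 and 2370 to 5237, with 5 lower, and for 9 macrophage genes 8079 to 8854 and 16747 to 36261, with 7 higher. The brightest macrophage genes in hSRY-ON lungs were Lpl (1.20) and Chil3 (3.76). None of the 9 macrophage changes was negative (0%, against 50.8% of all tested genes). Alveolar type II genes (10 tested) ran from 76514 to 78122 and from 92578 to 97181 with 4 higher, and type I genes (7 tested) from 45000 to 47107 and from 52802 to 55447 with 2 higher and 1 lower. Cardiac muscle genes (8 tested) ran from 7630 to 10684 and from 4590 to 9464 with 3 lower and 1 higher. The 3 lower were Myl2 (-2.59), Myl4 (-1.94) and Sln (-0.88). The 1 higher was Nppa (5.55), which read 12.32, 12.39 and 9.30 in hSRY-ON lungs and weighs heavily in their sums. The overlap of these sums therefore does not show like levels of the other cardiac genes. For 6 erythroid genes the ranges overlapped, at 58248 to 66476 and 58676 to 66242 with none called, as they did for 6 platelet genes, at 1212 to 1499 and 1248 to 1718 with 1 lower. For 8 hypoxia-responsive genes they were 10567 to 11743 and 12274 to 14193, with 2 higher. Among the defining markers, Itgax of macrophages, Hopx and Rtkn2 of type I cells, Epb42 of erythroid cells, Ryr2 of cardiac muscle, Ccna2 and Bub1 of dividing cells and Car9 and Bnip3 of the hypoxia list did not pass the detection filter.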

How the data were processed

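Total RNA of 3 hSRY-OFF and 3 hSRY-ON lungs was hybridised to Illumina MouseRef-8 v2.0 arrays, and groups and replicate numbers come from the sample labels. The authors deposited a non-normalized table with an intensity and a detection p-value for each probe and array. The software that summarised the beads is not given in the sources used here. The study's methods name TCC, a method for counts, and the submitters' processing notes name limma. As these are intensities, limma 3.58.1 in R 4.3.3 was used: background from the detection p-value, offset 16, quantile normalization and log2, as in neqc. The offset compresses changes of dim probes. The filter asked for a detection p under 0.05 in 3 or more of the 6 arrays, and it left 13841 probes (53.9%) for 10292 genes. Groups were compared by lmFit and eBayes without covariates, with Benjamini-Hochberg adjustment over all kept probes.

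Counts of members are over probes unless genes are named, and a gene was then represented by its brightest kept probe. A probe undetected in all arrays of 1 group was given as a bound, from the higher of its own value and the lowest detected value on each array. Every member is named. Array values are given for all called members and for the detected ligands, capillary, large-vessel and lymphatic members. In each further vessel list, up to 4 called genes with the smallest p in each direction are named. Bmpr2, Tmem100, Id1, Id3 and Ednra were added after their values were seen. Single marker genes of pericytes, macrophages and cardiac muscle were also named after their values were seen. The members and lists were chosen with earlier results of these data known, so none is independent evidence. Of 144 other list genes, 136 were found on the array, 10 through RefSeq synonyms.

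The methods give 3 mice per group, and litters are not given. Replicate numbers gave no sign of pairing the samples, which 3 pairs are too few to settle. With 6 arrays in all, precision is limited by their number. In data simulated for this comparison with 200 changed probes, 17705 probes were tested, 53% of the 2-fold and 79% of the 4-fold changes were called, and 3.65% of calls were false. Those 200 are a far smaller share of tested probes than the 26.9% called in the real arrays. The simulated rates therefore need not hold for the real arrays. Alternatives were other background corrections, offsets, normalizations, filters, variance models, array weights, a stricter threshold, the replicate number as a block, another summary of probes and each array left out. Promoter windows are from RefSeq (GRCm38.p6). Python 3.11.15 was used for motifs and figures.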

Additional observations from a re-analysis of the deposited data

How the results depend on the processing

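The median change of member genes stayed between -0.48 and -0.32 under all alternatives, and no called member probe reversed. At an adjusted p under 0.01 the counts were 1326 probes in all, 3 member probes lower and 0 higher, and 8 pathway genes lower and 3 higher. With each array left out in turn, the counts ranged from 1507 to 4385 for all probes, from 4 to 25 for member probes lower, from 0 to 1 for member probes higher, from 8 to 21 for pathway genes lower and from 3 to 7 for pathway genes higher. Without the detection filter 2 member probes were called higher, Eng and a probe of Prox1 (0.46). With the replicate block 11 member probes were called lower and 0 higher, and 2657 in all. Samples with the same number had deviations from their group means that correlated at -0.11, 0.10 and -0.09, and 1 of 3 pairs correlated best with its own number. These values gave no sign of pairing by number, but 3 pairs are too few to settle it. Uncalled changes near 0 changed sign. Dll4 was -0.0571 under median normalization, -0.0696 with a single scaling factor and no background correction and -0.0104 with array weights, and between -0.18 and 0.23 with each array left out. The second Vegfa probe was 0.0155 under cyclic loess, 0.0609 under median normalization and 0.0063 with a single scaling factor, and between -0.0751 and 0.0557 with each array left out. Ramp2 was 0.0174 under median normalization. With each array left out Flt4 ran from -0.23 to 0.37 and Lyve1 from -0.029 to 0.91. The cause of these shifts was not tested. Of the 12 called probes that lost their call somewhere, all kept their sign. The arrays give no depth, and probes near background, such as those of Kdr, Erg, Apln and Prox1, limit what can be said of those genes.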
